A study of Mus musculus with 6 samples.

Results

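The genes described here are the insulin-like growth factor 2 gene *Igf2*, its neighbours at the imprinted locus and the genes whose products receive the growth factor or bind its mRNA. The 9 genes, of 24393 features in the count files, were taken by symbol and are *Igf2*, *Igf2os*, *H19*, *Ins2*, *Igf2r*, *Igf1r*, *Igf2bp1*, *Igf2bp2* and *Igf2bp3*. *Igf2* and *Igf2os* were selected on their higher counts in the HOXA13-overexpressing cultures of these same data, so their difference is described without a test. The other 7 genes were named for their role, and 6 of them were tested, since *Ins2* had 1 count in 1 library and did not pass the filter on low counts.

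RNA-seq was done on KH2 mouse embryonic stem cells that had not been differentiated, in 3 control libraries (genotype label CONTROL) and 3 libraries from cells overexpressing human HOXA13 (genotype label HOXA13). All cells carried the strain label C57/BL/6, were grown in serum with LIF on irradiated mouse 3T3-Swiss albino fibroblasts, and had no treatment according to the labels. The study's methods describe FLAG-tagged HOXA13 placed in KH2 cells by recombinase-mediated targeting, hygromycin selection of colonies and induction by doxycycline. Whether doxycycline was added to these 6 cultures, and which clone gave which library, is not given in the sources used here. The study's methods call the replicates of each group biological, and neither they nor the labels say whether these were separate clones or separate cultures of a clone, so p-values measure the spread between these libraries.

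*Igf2* encodes a growth factor of the fetus and placenta that signals through the receptor tyrosine kinase *Igf1r* and is taken up and degraded through *Igf2r*. *Igf2* is transcribed from the paternal chromosome and *H19*, a long noncoding RNA, from the maternal one, under an imprinting control region between them to which CTCF binds on the unmethylated maternal copy. The Igf2bp proteins bind *Igf2* mRNA and many other mRNAs and are most abundant in embryonic tissues. The files count reads per gene and do not separate the parental alleles.

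On chromosome 7 of the mm9 build, *H19* lay at 149761434 to 149764048 and *Igf2* at 149836673 to 149852721, both on the minus strand and 72.6 kb apart. *Ins2* lay 11.8 kb beyond *Igf2*, at 149864561 to 149885415 on the minus strand. *Igf2os*, which the annotation calls *Igf2as*, lay on the plus strand at 149845598 to 149856261. Its span overlapped that of *Igf2* by 7124 bp, but the exons of the 2 genes shared only 98 bp, of 5493 exonic bp in *Igf2* and 5337 in *Igf2os*. The library kit kept strand. The strand setting used in counting is not given in the sources used here, and without it reads in the shared bases cannot be told apart.

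RefSeq on GRCm38.p6 gave promoter windows, from 250 bases before to 50 bases after a start site, for 5 of the 9 genes, 8 windows in all, of which 4 belonged to *Igf2*. Of the 4 *Igf2* windows, 2 lay inside the span of *Igf2os*. The next lines give the 250 bases before the start site for 1 window inside that span (promoter 2, chr7:142661272-142661521, minus strand) and 1 outside it (promoter 4, chr7:142657497-142657746, minus strand), to show how the start sites of the growth factor differ in sequence. Capitals mark GC boxes (GGGCGG), which were searched on both strands.
Igf2 promoter 2: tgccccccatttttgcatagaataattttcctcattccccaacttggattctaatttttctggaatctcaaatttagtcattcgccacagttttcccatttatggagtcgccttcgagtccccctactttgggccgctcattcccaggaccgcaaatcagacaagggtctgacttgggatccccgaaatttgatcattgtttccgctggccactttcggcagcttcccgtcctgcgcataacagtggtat
Igf2 promoter 4: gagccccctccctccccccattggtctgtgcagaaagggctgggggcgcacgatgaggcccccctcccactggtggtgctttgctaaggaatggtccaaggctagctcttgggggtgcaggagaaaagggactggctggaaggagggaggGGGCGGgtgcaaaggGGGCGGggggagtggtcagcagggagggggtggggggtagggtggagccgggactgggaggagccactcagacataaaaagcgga
A GC box was present in 5 of the 8 windows, against 35.7% of the 32851 mouse promoter windows of this length. Promoter 4 held 2 GC boxes and promoter 2 none. CAATAAA, a sequence preferred by HOX13 proteins in vitro, was in 0 of the 8 windows on either strand and in 4.6% of all windows. TATAAA was in 0 of the 8 windows and in 13.6% of all windows. These matches describe letters in the windows and not sites of binding.

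The libraries held 13494135 to 21766589 counts. Levels are given as CPM, the counts of a gene scaled by TMM to the same library total, and 3 counts corresponded to 0.134 to 0.227 CPM. The count of human HOXA13 was 6, 0 and 0 in control libraries and 4298, 4177 and 2881 in HOXA13 libraries. Of the 13846 genes tested, 27.7% passed edgeR's quasi-likelihood test at an adjusted p under 0.05 (14.4% higher and 13.3% lower in HOXA13 libraries, or 1994 and 1842 genes, against 1576 and 2500 with scaling by library size alone), and 45.7% had groups that did not overlap (23.5% higher and 22.2% lower). Embryonic stem cell markers summed to 2343 to 3130 CPM in control and 3042 to 3124 CPM in HOXA13 libraries, and none of the 8 was at 0 (3 higher, *Sox2*, *Nanog* and *Esrrb*, and 1 lower, *Tdgf1*). The 10 primitive endoderm markers summed to 78.1 to 114 CPM in control and 59.1 to 61.3 CPM in HOXA13 libraries, with 2 higher (*Gata6* and *Sox7*) and 2 lower (*Pdgfra* and *Lama1*) of 7 tested and *Ttr* at 0. The 16 fibroblast markers were also present in every library and summed to 5130, 7827 and 7696 CPM in control and 7024, 8319 and 8813 CPM in HOXA13 libraries.

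*Igf2*, the ligand, had 161, 217 and 221 CPM in control libraries 1, 2 and 3 and 733, 748 and 776 CPM in HOXA13 libraries 1, 2 and 3. Every HOXA13 library was above every control library, and control library 1 was the lowest of the 6. The mean was 199.9 ± 33.4 CPM in control and 752 ± 22.2 CPM in HOXA13 libraries (SD, n = 3), a log2 fold change of 1.91 (SE 0.12), or 3.76-fold. Of the tested genes, 2.87% had a larger absolute log2 fold change. Over the 6 libraries 2.07% of tested genes had a higher mean CPM than *Igf2* (476 CPM). That mean includes the HOXA13 libraries, for whose higher counts *Igf2* was chosen, and the rank in control libraries alone is not reported here.

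*Igf2os*, the transcript from the opposite strand, was scarce in control and abundant in HOXA13 libraries. It had 19, 13 and 23 counts in control, or 0.847, 0.883 and 1.16 CPM. In HOXA13 libraries it had 2058, 1820 and 1358 counts, or 104, 100.2 and 103 CPM. The groups were far apart, with a mean of 0.964 ± 0.172 CPM against 102 ± 2.17 CPM (SD, n = 3). The log2 fold change was 6.72 (SE 0.12), a 105-fold difference, and 0.0578% of tested genes had a larger one in either direction.

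The plot of the 8 tested genes by library gives these levels side by side.

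**Figure D1:**
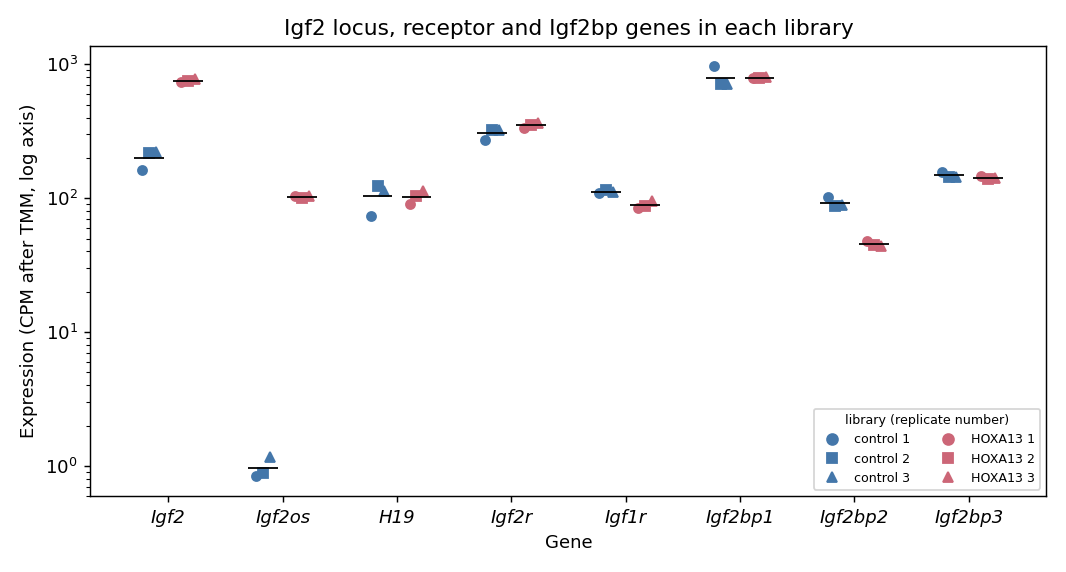
Expression (CPM after TMM scaling, log axis) of 8 of the 9 genes in each library, with control in blue, HOXA13 in red, symbols for the replicate numbers and a line at the group mean. *Igf2os* went from 0.964 to 102 CPM and *Igf2* from 199.9 to 752 CPM, *Igf2bp2* was lower in every HOXA13 library, and the *H19*, *Igf2bp1* and *Igf2bp3* groups overlapped.

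The antisense transcript was higher relative to the sense transcript as well. *Igf2os* had 0.525%, 0.406% and 0.526% of the counts of *Igf2* in the 3 control libraries and 14.3%, 13.4% and 13.2% in the 3 HOXA13 libraries. The mean was 0.486 ± 0.0686% in control and 13.6 ± 0.56% in HOXA13 libraries (SD, n = 3). This ratio is taken within a library and does not depend on scaling.

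*H19*, the maternally expressed noncoding RNA of the locus, did not rise with *Igf2*. It had 73.6, 124 and 114 CPM in control libraries and 89.8, 104 and 114 CPM in HOXA13 libraries. The groups overlapped, and replicate 1 was the lowest library of each group. The mean was 104 ± 26.5 CPM in control and 103 ± 12.2 CPM in HOXA13 libraries (SD, n = 3), and the difference did not pass the test (log2 fold change -0.01, SE 0.18, adjusted p = 0.962).

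*H19* had 45.6%, 56.9% and 51.6% of the counts of *Igf2* in control libraries and 12.3%, 13.9% and 14.7% in HOXA13 libraries. The groups did not overlap. The mean ratio was 51.4 ± 5.64% in control and 13.6 ± 1.24% in HOXA13 libraries (SD, n = 3). No test was made of it, because *Igf2* was chosen for its rise.

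**Figure D2:**
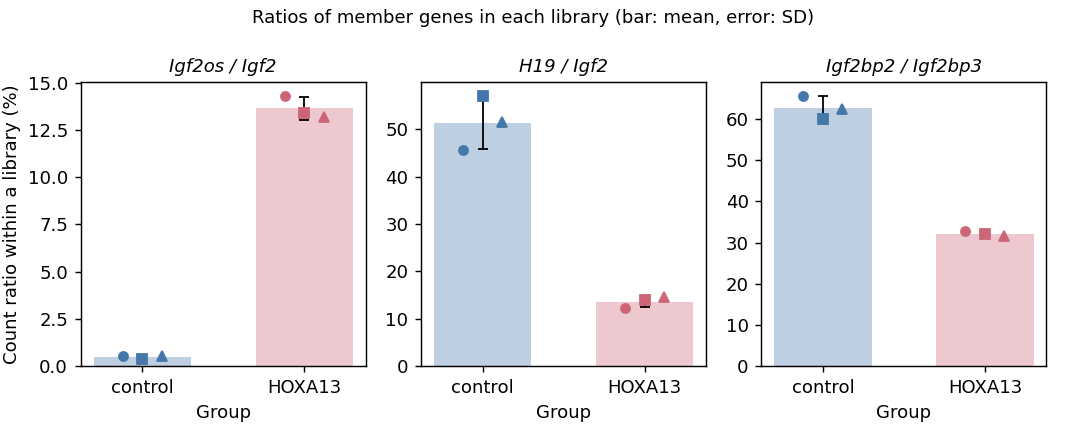
Count ratios within a library in percent, for *Igf2os* over *Igf2*, *H19* over *Igf2* and *Igf2bp2* over *Igf2bp3*. Points are libraries with symbols for the replicate numbers, bars are group means from 0 and error bars are SD. The groups did not overlap in any of the 3 ratios, with means of 0.486% and 13.6%, 51.4% and 13.6%, and 62.7% and 32.1% in control and HOXA13 libraries.

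Within each group, the level of *H19* had the same order over the libraries as the summed fibroblast markers. Between the groups it did not. HOXA13 library 3 had the highest sum (8813 CPM) and 114 CPM of *H19*, against 124 CPM of *H19* in control library 2 at a sum of 7827 CPM. The markers are the 16 genes of a list of matrix and mesenchymal genes that includes *Col1a1*, *Col1a2*, *Fbln2* and *Prrx1*. None was called in either direction in edgeR, 1 (*Col3a1*, log2 fold change 0.50, adjusted p = 0.0782) had an unadjusted p under 0.05, and DESeq2 called 1, again *Col3a1*, and limma-voom 0.

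As a share of the summed fibroblast markers, *H19* was 1.44%, 1.58% and 1.48% in control libraries and 1.28%, 1.25% and 1.29% in HOXA13 libraries. On this scale the SD of log2 values among control libraries was 0.07, against 0.40 for log2 CPM, and among HOXA13 libraries 0.03, against 0.17. The groups did not overlap. The difference was -0.23 on the log2 scale.

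*Igf2* was 3.15%, 2.78% and 2.87% of the summed markers in control and 10.4%, 8.99% and 8.81% in HOXA13 libraries, a log2 difference of 1.68. Its SD among control libraries was 0.09 on this scale, against 0.25 for log2 CPM, but among HOXA13 libraries it was 0.13, against 0.04 for log2 CPM. The fibroblast markers were measured in the same libraries as the stem cell markers, and in bulk samples fewer cells of a type and less RNA per cell cannot be told apart. The part of feeder RNA in the levels of *H19* and *Igf2* was not tested.

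**Figure D3:**
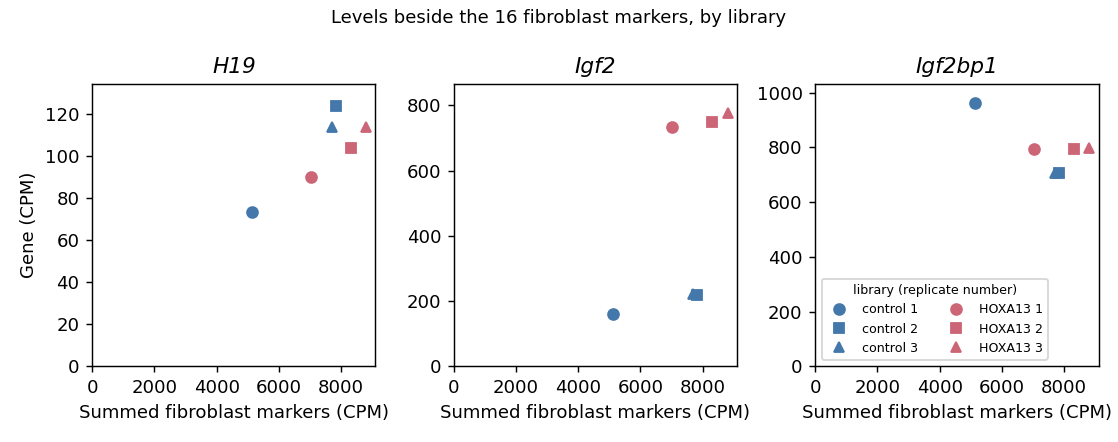
Level of *H19*, *Igf2* and *Igf2bp1* (CPM, vertical axis from 0) against the summed level of the 16 fibroblast markers (CPM, horizontal axis from 0) in each library, with control in blue, HOXA13 in red and symbols for the replicate numbers. Control library 1, at 5130 CPM of markers, had the lowest *H19* and *Igf2* and the highest *Igf2bp1*, and the 3 HOXA13 libraries lay at 733 to 776 CPM of *Igf2* across 7024 to 8813 CPM of markers.

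*Ins2*, an insulin gene that is the next gene of the files beside *Igf2*, was counted 1, 0 and 0 times in control and 0, 0 and 0 times in HOXA13 libraries, below the floor in each. *Igf1*, the other growth factor of the family, had 2.98 ± 0.438 CPM in control and 3.22 ± 0.863 CPM in HOXA13 libraries (SD, n = 3), and did not pass (log2 fold change 0.12, adjusted p = 0.756). *Ins1*, the other mouse insulin gene, had 0 counts in all 6 libraries. Of the ligands of this family, *Igf2* was thus the only one with over 10 CPM in any library.

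*H19* and *Igf2* each contain a microRNA gene, *Mir675* in an exon of *H19* and *Mir483* in an intron of *Igf2*. Their mature sequences from RefSeq are given because both are made from transcripts described here, with the seed (bases 2 to 8) in capitals.
mmu-miR-675-3p: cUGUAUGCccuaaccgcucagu
mmu-miR-675-5p: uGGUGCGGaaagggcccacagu
mmu-miR-483-3p: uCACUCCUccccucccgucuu
mmu-miR-483-5p: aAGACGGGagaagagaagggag
No seed was shared between the 4. The libraries were selected for poly-A tails and do not measure mature microRNAs: *Mir675* had 0 counts in all libraries, and *Mir483* was counted 0, 0 and 0 times in control and 2, 1 and 1 times in HOXA13 libraries, under the floor.

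The receptors moved little in comparison. *Igf2r*, the receptor that clears the ligand and is itself imprinted in the mouse, lies on chromosome 17 at 12875272 to 12962530, minus strand. It had 271, 324 and 320.1 CPM in control libraries and 334, 351 and 366 CPM in HOXA13 libraries. The HOXA13 libraries were all above the control libraries, by a small margin. The mean was 305 ± 29.5 CPM in control and 350.2 ± 15.7 CPM in HOXA13 libraries (SD, n = 3), and the log2 fold change of 0.20 (SE 0.08) did not pass the test (adjusted p = 0.106). *Airn*, the antisense RNA whose span overlaps *Igf2r* by 28354 bp without sharing exons, had 0.826 ± 0.144 CPM in control and 0.707 ± 0.176 CPM in HOXA13 libraries (SD, n = 3, adjusted p = 0.74).

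*Igf1r*, the signalling receptor, lies on chromosome 7 at 75097713 to 75371484, plus strand, far from *Igf2*. It had 109, 115 and 112 CPM in control libraries and 84.9, 87.8 and 95 CPM in HOXA13 libraries. All HOXA13 libraries were below all control libraries. *Igf1r* fell from 112 ± 3.13 CPM to 89.3 ± 5.19 CPM (SD, n = 3), a log2 fold change of -0.33 (SE 0.07, adjusted p = 0.00903). Without HOXA13 replicate 2 the adjusted p was 0.0564.

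Within a library, *Igf2r* had 2.48, 2.81 and 2.87 counts for each count of *Igf1r* in control and 3.93, 4 and 3.85 in HOXA13 libraries. The groups did not overlap, and the exact two-sided permutation test gave p = 0.1, the smallest that 3 libraries against 3 allow. *Insr*, the insulin receptor, had 31.6 ± 7.82 CPM in control and 34.2 ± 0.183 CPM in HOXA13 libraries (SD, n = 3, log2 fold change 0.11, adjusted p = 0.648), and without control replicate 1 its log2 fold change was 0.33 (adjusted p = 0.0184).

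Of the 3 mRNA-binding proteins, *Igf2bp2* was the one that fell. *Igf2bp2* (chromosome 16, 22059082 to 22163372, minus strand), an RNA-binding protein first found on *Igf2* leader sequences, had 102, 87 and 89.2 CPM in control libraries and 47.7, 44.9 and 44.3 CPM in HOXA13 libraries. The groups were well separated. The mean was 92.9 ± 8.28 CPM in control and 45.6 ± 1.81 CPM in HOXA13 libraries (SD, n = 3), a log2 fold change of -1.03 (SE 0.08, adjusted p = 0.000131), or 2.04-fold lower. Of the tested genes, 9.15% had a larger absolute log2 fold change. The adjusted p of *Igf2bp2* was 0.00236 or lower under all alternatives that gave one.

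*Igf2bp1* (chromosome 11, 95818477 to 95867254, minus strand), which stabilises target mRNAs in embryonic cells, was the most abundant of the 3. It had 963, 707 and 706 CPM in control libraries and 795, 793 and 799 CPM in HOXA13 libraries. Control library 1 was above all others and the remaining control libraries were below the HOXA13 libraries. With all 6 libraries the log2 fold change was 0.01 (SE 0.12, adjusted p = 0.974), and without control replicate 1 it was 0.17 (adjusted p = 0.0378).

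*Igf2bp3* (chromosome 6, 49035220 to 49164953, minus strand), the third family member, had 156, 145 and 143 CPM in control libraries and 146, 139.8 and 141 CPM in HOXA13 libraries. The groups overlapped (log2 fold change -0.06, SE 0.06, adjusted p = 0.534). *Igf2bp2* had 65.6%, 60% and 62.5% of the counts of *Igf2bp3* in control and 32.7%, 32.1% and 31.5% in HOXA13 libraries (exact permutation p = 0.1, the smallest possible). The ratio of *Igf2bp1* to *Igf2bp3* was 5.33 ± 0.728 in control and 5.6 ± 0.133 in HOXA13 libraries (SD, n = 3, exact permutation p = 0.4).

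Of the 6 genes tested, 0 were higher and 2 (*Igf1r* and *Igf2bp2*) were lower at an adjusted p under 0.05, against 14.4% and 13.3% of all tested genes. At an unadjusted p under 0.05, 1 was higher, *Igf2r*, and DESeq2 and limma-voom each called 0 higher.

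Per kb of annotated exon, the order of the levels changed between the groups. In control libraries the order was *Igf2bp1* (81.8 CPM per kb), *H19* (43.7), *Igf2* (36.4), *Igf2bp3* (34.1), *Igf2r* (32.3), *Igf1r* (25), *Igf2bp2* (13), *Igf2os* (0.181) and *Ins2* (0.0183). The ranges of neighbours overlapped from *H19* through *Igf2r*, so those 4 genes had no clear order. In HOXA13 libraries the order was *Igf2* (137 CPM per kb), *Igf2bp1* (82.2), *H19* (43.3), *Igf2r* (37.1), *Igf2bp3* (32.7), *Igf1r* (19.9), *Igf2os* (19.2), *Igf2bp2* (6.4) and *Ins2* (0). There the ranges of *H19* and *Igf2r* overlapped, as did those of *Igf1r* and *Igf2os*. The annotation behind the counts is not given in the sources used here, so these lengths may differ from those of the counted exons.

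The spread among replicates also differed between genes. The highest control library was 1.37 times the lowest for *Igf2*, 1.68 times for *H19* and 1.36 times for *Igf2bp1*. In HOXA13 libraries these ratios were 1.06, 1.27 and 1.01. *Igf1r* was the exception, with 1.06 in control and 1.12 in HOXA13 libraries.

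The genes next to the locus were described to see how far the difference reached. Of 41 other features within 1 Mb of *Igf2*, 22 were tested, and 4 were higher and 2 lower (18.2% and 9.09%, against 14.4% and 13.3% of all tested genes), with a median log2 fold change of 0.02, against 120 higher and 171 lower of 1074 tested genes of chromosome 7 (median -0.05) and a median of 0.00 over all genes. *Th* among the higher and *Brsk2* among the lower passed the filter on low counts only through the group where they were high, so these shares are not read as support. Among features with at least 10 counts in every library, 3 were higher and 2 lower.

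On the side of *H19*, the 4 nearest features were *Prr33*, *Tnnt3*, *Mrpl23* and *Nctc1*. *Prr33* had at most 4 counts in a library and *Nctc1* had 0 in all. *Tnnt3*, a fast muscle troponin gene, was counted 14, 0 and 6 times in control and 13, 12 and 20 times in HOXA13 libraries (log2 fold change 1.40, SE 0.71, adjusted p = 0.182). *Mrpl23*, a mitochondrial ribosomal protein gene, was counted 10, 2 and 8 times in control and 22, 13 and 9 times in HOXA13 libraries (log2 fold change 1.28, SE 0.44, adjusted p = 0.0624). The filter on low counts works on CPM, and *Mrpl23* passed it only through the HOXA13 libraries (0.68 to 1.12 CPM, against 0.136 to 0.446 in control). Neither passed with all libraries. Without control replicate 1 *Tnnt3* had an adjusted p of 0.0476 (log2 fold change 2.34). Its remaining control counts, 0 and 6, were under the filter's minimum of 10, so this call is not read as support.

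On the other side, beyond *Ins2*, *Th* and *Ascl2* were the nearest features and both were higher in every HOXA13 library. *Th*, which encodes tyrosine hydroxylase of catecholamine synthesis (150078657 to 150117033), was counted 3, 0 and 1 times in control and 34, 24 and 13 times in HOXA13 libraries. With each control library set to 3 counts it was at least 8.24-fold higher, at a level of 1.34 ± 0.372 CPM (SD, n = 3) in HOXA13 libraries. It passed the filter on low counts only through the HOXA13 libraries, so its call is not read as support. *Ascl2*, an imprinted gene for a transcription factor of trophoblast and intestinal stem cells (150152727 to 150155169), had 2.9, 1.56 and 1.82 CPM in control and 4.62, 5.34 and 5.82 CPM in HOXA13 libraries (log2 fold change 1.30, SE 0.26, adjusted p = 0.00745). The next features, *Tspan32* (log2 fold change 0.80, adjusted p = 0.308) and *R74862* (-0.44, adjusted p = 0.131), did not pass with all libraries. Without control replicate 2 *Tspan32* had an adjusted p of 0.0141 (log2 fold change 1.63). Its remaining control counts, 6 and 9, were under the filter's minimum count, so this call is not read as support. The 9 trophoblast markers summed to 78.2 to 209 CPM in control and 257 to 265 CPM in HOXA13 libraries, with *Krt7*, *Tfap2c* and *Gata3* higher and *Krt8* lower of 6 tested, and the placental genes *Tpbpa* and *Prl3d1* had 0 counts in all 6 libraries. *Tfap2c* alone made the sum higher, since the other 8 markers summed to 159, 27.9 and 70.6 CPM in control and 39, 38.7 and 36.4 CPM in HOXA13 libraries. Their part in the levels of *Ascl2* and *Igf2* was not tested.

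Farther away, *Cdkn1c*, a maternally expressed inhibitor of the cell cycle 791.5 kb from *Igf2*, fell from 28.9 ± 8.07 CPM to 14.1 ± 0.677 CPM (SD, n = 3, log2 fold change -1.04, SE 0.19, adjusted p = 0.00542). Its control libraries had 37.2, 21.1 and 28.2 CPM, in the same order as the summed mesoderm markers (232, 16.9 and 100.5 CPM), whose part was not tested. *Phlda2*, another maternally expressed gene of that domain, had a log2 fold change of -0.03 (adjusted p = 0.919), and *Cd81*, a tetraspanin, of -0.18 (adjusted p = 0.298). *Cars*, a cysteinyl-tRNA synthetase gene, rose by 0.32 and *Tollip*, an adaptor of Toll-like receptor signalling, by 0.29 on the log2 scale (adjusted p = 0.00559 and 0.00976). *Brsk2*, a kinase gene, was counted 34, 14 and 33 times in control and 7, 6 and 5 times in HOXA13 libraries, and since it passed the filter only through the control libraries its call is not read as support. Imprinted genes of the same chromosome region thus differed in direction.

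**Figure D4:**
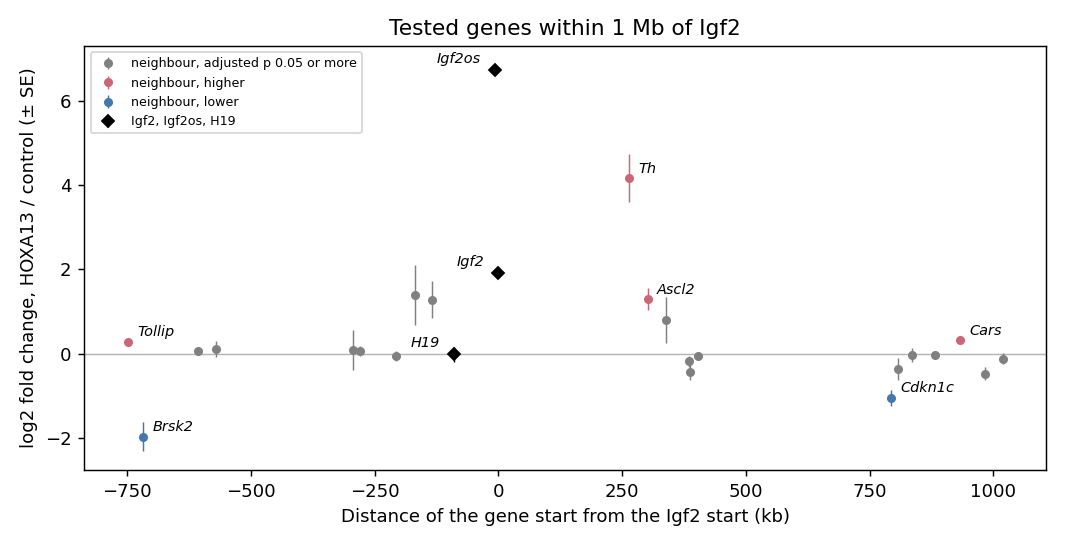
Log2 fold change, HOXA13 over control, with its SE, of the 22 tested neighbours within 1 Mb of *Igf2* and of *Igf2*, *Igf2os* and *H19*, against the distance of the gene's start from that of *Igf2* in kb, with negative values on the side of *H19*. *Igf2os* (6.72), the fitted value of *Th* and *Igf2* (1.91) stood highest and *H19* was at -0.01. *Th* and *Brsk2* passed the filter on low counts only through the group where they were high, so their calls are not read as support.

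Around *Igf2r* on chromosome 17, 13 of 28 features within 1 Mb were tested, and 2 were higher and 3 lower (15.4% and 23.1%, against 14.4% and 13.3% of all tested genes and 80 higher and 99 lower of 660 on chromosome 17, median log2 fold change -0.04). *Wtap*, a subunit of the RNA methyltransferase complex, rose from 86.9 ± 6.99 CPM to 209 ± 21.8 CPM (SD, n = 3, log2 fold change 1.27, adjusted p = 8.86e-05). *Sod2*, the mitochondrial superoxide dismutase gene, rose from 118 ± 26.8 CPM to 226 ± 5.1 CPM (log2 fold change 0.95, adjusted p = 0.00269). Both lie closer to *Igf2r* than any of the genes that fell. These were *Agpat4* (log2 fold change -0.65, adjusted p = 0.00728), *Mllt4* (-0.49, adjusted p = 0.0128) and *Tcte2* (-1.66, adjusted p = 0.0211), and the spans of the last 2 overlap. Without HOXA13 replicate 1 or 2 the last 2 lost their calls (*Mllt4* also without HOXA13 replicate 3 and *Tcte2* without control replicate 3), with adjusted p of at most 0.059 and 0.112.

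The wider IGF pathway, in a list of ligands, receptors, binding proteins, proteases and adaptors without *Igf2*, had 26 tested genes, of which 1 was higher and 6 lower (3.85% and 23.1%, against 14.4% and 13.3% of all tested genes, median log2 fold change -0.05, against 0.00 over all genes). The receptor *Igf1r*, described above, is 1 of the 6. *Irs4*, described below, is another, but it passed the filter on low counts only through the control libraries. The share of lower genes is thus not read as support. Among genes with at least 10 counts in every library, 1 was higher and 5 were lower. The gene that rose was *Shc1*, an adaptor that couples receptor kinases to Ras, from 111 ± 6.43 CPM to 164 ± 9.81 CPM (SD, n = 3, log2 fold change 0.56, adjusted p = 0.00125).

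Of the binding proteins, which hold the ligands in extracellular fluid, *Igfbp4* fell from 64.7 ± 2.9 CPM to 45 ± 5.85 CPM (log2 fold change -0.53, adjusted p = 0.00696). *Igfbp3* averaged 177 ± 127 CPM in control and 61.2 ± 0.732 CPM in HOXA13 libraries (SD, n = 3, log2 fold change -1.54, adjusted p = 0.0368). That call was lost in 7 of 15 alternatives, among them the replicate block and the fits without control replicate 3 or any HOXA13 replicate, and the log2 fold change ran from -1.92 to -0.81. Over control libraries 1, 2 and 3 *Igfbp3* had 318, 70.2 and 143 CPM, and the 8 mesoderm markers summed to 232, 16.9 and 100.5 CPM in the same order, against 5.53 to 7.86 CPM in HOXA13 libraries. Their part in the level of *Igfbp3* was not tested. *Igfbp2*, with 202 CPM in control and 118 CPM in HOXA13 libraries, did not pass (log2 fold change -0.78, adjusted p = 0.0548), and its control libraries had the same order (278, 118 and 209 CPM). The other binding proteins tested, *Igfbp5*, *Igfbp6*, *Igfbp7* and *Igfbpl1*, had log2 fold changes between -0.42 and 0.15 and did not pass.

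*Stc1*, an inhibitor of the protease *Pappa* that cuts *Igfbp4*, fell from 6.92 ± 0.491 CPM to 3.88 ± 0.55 CPM (log2 fold change -0.82, adjusted p = 0.00858), and *Pappa* itself had a log2 fold change of 0.26 (adjusted p = 0.259). Of the adaptors, *Sh2b2* (log2 fold change -1.12, adjusted p = 0.0121, 3.76 CPM in control) fell from a low level and lost its call without HOXA13 replicate 1 or 2 (adjusted p of at most 0.0619). *Irs4* was counted 30, 21 and 31 times in control and 4, 6 and 1 times in HOXA13 libraries, and since it passed the filter only through the control libraries its call is not read as support. *Irs1* (-0.11, adjusted p = 0.492) and *Irs2* (-0.45, adjusted p = 0.154), the main substrates of the receptor in most cells, did not pass. *Grb10*, an imprinted adaptor that restrains the receptor, had 508 CPM in control and 411 CPM in HOXA13 libraries (log2 fold change -0.31, adjusted p = 0.118).

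**Figure D5:**
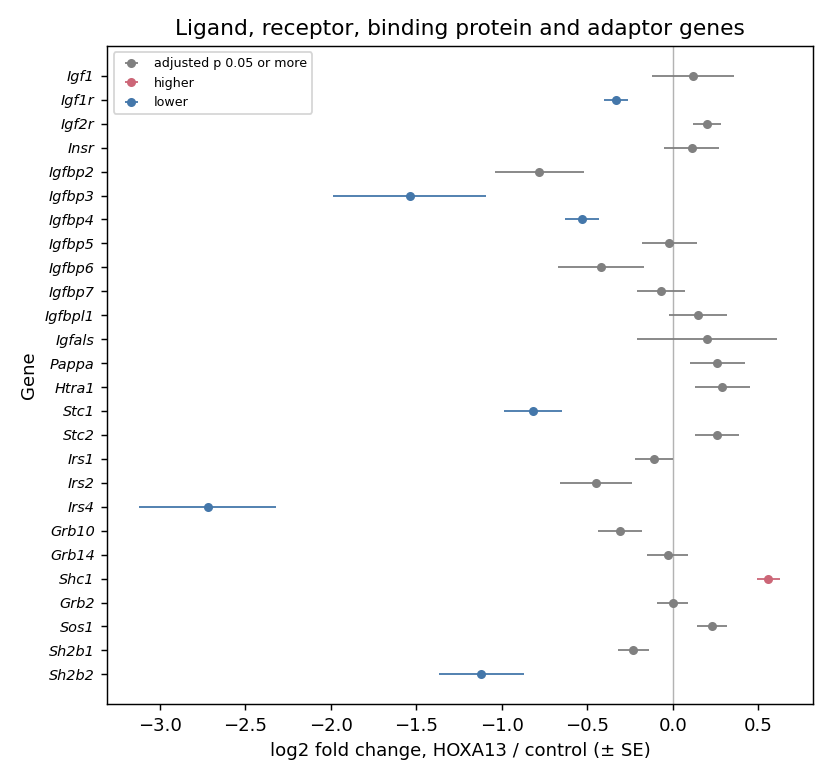
Log2 fold change, HOXA13 over control, with its SE, of the 26 tested genes of the IGF list, ordered as ligand, receptors, binding proteins, proteases with their inhibitors, and adaptors. *Shc1* (0.56) was the only gene past the test to the right of 0, and 6 genes from *Igf1r* (-0.33) to *Irs4* (-2.72) were past it to the left. *Irs4* passed the filter on low counts only through the control libraries, so its call is not read as support.

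Downstream of the receptor, 30 genes of the PI3K-AKT-mTOR route were tested, and 5 were higher and 5 lower (16.7% each, against 14.4% and 13.3% of all tested genes, median log2 fold change 0.03). These shares are near those of all genes, so the values that follow describe single genes and not the route. The kinase genes *Akt1* (log2 fold change 0.05, adjusted p = 0.729) and *Akt2* (0.03, adjusted p = 0.852) did not pass. *Pdpk1*, which phosphorylates AKT, rose from 101 ± 10.1 CPM to 155 ± 3.83 CPM (SD, n = 3, log2 fold change 0.63, adjusted p = 0.00126). *Pik3r1*, *Rictor* and *Eif4ebp1* rose by 0.39, 0.39 and 0.23 on the log2 scale. *Inppl1*, a phosphatase that acts on the PI3K product, fell from 131 ± 8.45 CPM to 81.2 ± 7.9 CPM (SD, n = 3, log2 fold change -0.70, adjusted p = 0.00112). The catalytic subunit *Pik3cd* (-1.27, adjusted p = 0.00636), the regulatory subunit *Pik3r2* (-0.35, adjusted p = 0.00815) and the translation repressor *Eif4ebp2* (-0.29, adjusted p = 0.02) fell too. The control libraries had 36, 18.7 and 21.8 CPM of *Pik3cd*, again in the order of the mesoderm markers, whose part was not tested. *Pik3r1* lost its call without HOXA13 replicate 1 or 3 and *Rictor* without HOXA13 replicate 1 (adjusted p of at most 0.0734 and 0.0649). *Eif4ebp1* and *Eif4ebp2* lost theirs without control replicate 3 or any HOXA13 replicate, and with the replicate block, and *Eif4ebp1* also with scaling by library size alone (adjusted p of at most 0.148 and 0.0873).

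Genes that set or read imprints were taken as another list, of which 16 were tested, with 5 higher and 4 lower (31.2% and 25%, against 14.4% and 13.3% of all tested genes, median log2 fold change 0.11). Factors that bind imprinting control regions did not pass, namely *Ctcf* (292 CPM in control and 319 CPM in HOXA13 libraries, log2 fold change 0.13, adjusted p = 0.164), *Zfp57* (-0.43, adjusted p = 0.338) and *Zfp445* (-0.02, adjusted p = 0.887). Nor did *Trim28* (0.11, adjusted p = 0.242), the corepressor that the zinc-finger proteins recruit. *Dnmt1*, the maintenance methyltransferase, did not pass either (-0.02, adjusted p = 0.848), whereas its partner *Uhrf1* rose from 271 ± 18.3 CPM to 427 ± 6.34 CPM (SD, n = 3, log2 fold change 0.66, adjusted p = 0.000348). *Dppa3*, which protects maternal imprints in the zygote, rose from 39 ± 6.7 CPM to 87.7 ± 4.94 CPM (log2 fold change 1.17, adjusted p = 0.000395). *Plagl1*, an imprinted transcription factor, rose by 0.73 on the log2 scale (adjusted p = 0.00459), and the cohesin genes *Rad21* and *Smc3* by 0.39 and 0.22 (adjusted p = 0.0103 and 0.0372). Without HOXA13 replicate 1 both cohesin genes lost their calls, *Smc3* also without control replicate 3 or either other HOXA13 replicate, with the replicate block and with scaling by library size alone (adjusted p of at most 0.0506 for *Rad21* and 0.113 for *Smc3*).

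The de novo methyltransferase genes of the list, *Dnmt3a* and *Dnmt3b*, and their cofactor gene *Dnmt3l* had lower means in HOXA13 libraries, although the *Dnmt3b* groups overlapped. *Dnmt3a* went from 183 ± 53.8 CPM to 49.4 ± 1.63 CPM (SD, n = 3, log2 fold change -1.89, adjusted p = 0.000393) and *Dnmt3l* from 185 ± 60 CPM to 90.9 ± 1.81 CPM (log2 fold change -1.02, adjusted p = 0.00837). *Dnmt3b* was past the threshold by little (log2 fold change -0.59, adjusted p = 0.0491), and that call was lost in 8 of 15 alternatives, among them the replicate block and every fit that left out a library except control replicate 2 (adjusted p of at most 0.161). Without HOXA13 replicate 1 *Dnmt3l* had an adjusted p of 0.0544. *Stag2*, a cohesin subunit, fell by 0.28 on the log2 scale (adjusted p = 0.009), a call that was lost without HOXA13 replicate 2 or 3 (adjusted p of at most 0.061). In the same libraries the 8 mesoderm markers summed to 232, 16.9 and 100.5 CPM in control and 5.53 to 7.86 CPM in HOXA13 libraries, with *T* and *Mixl1* lower and none at 0 in all 6. Their part in these differences was not tested.

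Of 17 tested genes that act on mRNAs together with the Igf2bp proteins, 3 were higher and 2 lower (17.6% and 11.8%, near the 14.4% and 13.3% of all tested genes, median log2 fold change 0.07). *Lin28a*, a pluripotency RNA-binding protein that blocks let-7 maturation and binds *Igf2* mRNA, fell from 573 ± 24.1 CPM to 256 ± 7.9 CPM (SD, n = 3, log2 fold change -1.16, adjusted p = 1.71e-05). Its relative *Lin28b* fell from 74.7 ± 8.44 CPM to 56.4 ± 3.76 CPM (log2 fold change -0.41, adjusted p = 0.0173), a call that was lost without control replicate 3 or HOXA13 replicate 2 or 3 (adjusted p of at most 0.0788). *Hmga2*, which is known as a regulator of *Igf2bp2*, did not pass (208 CPM in control and 243 CPM in HOXA13 libraries, log2 fold change 0.23, adjusted p = 0.139). *Dis3l2* (0.51), *Dhx9* (0.28) and *Hnrnpu* (0.26) rose in the fit on all chromosomes, but all 3 lie on chromosome 1 and none passed once each chromosome was centred in each library, where *Dhx9* was at -0.10 and *Hnrnpu* at -0.11. *Hnrnpu* also lost its call with scaling by library size alone, *Dhx9* and *Hnrnpu* with the replicate block, and all 3 without control replicate 3 or any HOXA13 replicate.

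Among 12004 genes with enough expression, those whose centred log2 CPM over the 6 libraries lay nearest to *Igf2* by Euclidean distance were *Otud1* (0.187), *Fgfr2* (0.257), *Gdf15* (0.268), *Mturn* (0.285) and *Tprn* (0.315). *Fgfr2*, a fibroblast growth factor receptor on chromosome 7, went from 24.8 ± 4.92 CPM in control to 92.4 ± 1.19 CPM in HOXA13 libraries (SD, n = 3). The genes nearest to *H19* were *P3h3* (distance 0.0561), *Loxl3* (0.0873), *Ccnd2* (0.102), *Dok1* (0.107) and *Ltbp3* (0.116). *P3h3* and *Loxl3* encode enzymes that modify collagen, and *Ltbp3* a matrix protein that binds latent TGF-beta. *P3h3*, *Loxl3*, *Ccnd2* and *Dok1* lie on chromosome 6 and *Ltbp3* on chromosome 19. The part of a shared chromosome in this likeness was not tested. All 10 were picked for their likeness over libraries that share a group difference, so these distances are a description.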

How the data were processed

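RNA of 6 cultures was measured by poly-A RNA-seq with a strand-keeping kit, in 3 control and 3 HOXA13 libraries grouped by genotype label. The authors mapped reads to mm9 with TopHat2 (2.0.14 in the submitters' processing notes, another version in the paper's methods) and deposited 1 table of counts per library from HTSeq 0.6.1p1. The annotation, strand setting and counting mode are not given in the sources used here. The deposited counts held 13494135 to 21766589 reads per library over 24393 features, so 3 counts are 0.134 to 0.227 CPM.

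From the counts, genes were filtered with filterByExpr (minimum count 10) and scaled by TMM, and 13846 genes were tested in edgeR 4.0.16 (R 4.3.3) with the quasi-likelihood test, HOXA13 against control without covariates, and Benjamini-Hochberg adjustment over all genes tested. Alternatives were DESeq2 1.42.0, limma-voom (limma 3.58.1), other scaling, filters and dispersion settings, a replicate block, centring of each chromosome and leaving out each library. The method was tested on simulated counts. Positions of 22181 features came from GENCODE vM1 on mm9, 20824 by symbol and 1357 by an older symbol. Promoters and microRNAs came from RefSeq on GRCm38.p6.

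The genes and lists were chosen with earlier results of these data known. Named beside the 9 genes were *Igf1*, *Ins1*, *Insr*, the 4 nearest features on each side of the locus, list genes past 0.05 (at most 6 in each direction) and the 5 genes nearest in profile to *Igf2* and to *H19*. Other genes of a list, such as *Igfbp2*, *Irs1*, *Irs2*, *Grb10*, *Pappa*, *Akt1*, *Akt2*, *Ctcf*, *Zfp57*, *Zfp445*, *Trim28*, *Dnmt1*, *Hmga2*, *Phlda2* and *Cd81*, were chosen for their role after their values were seen. Of the list names, *Tut4* and *Tut7* were found under *Zcchc11* and *Zcchc6*. Count ratios without *Igf2* or *Igf2os* were compared by an exact two-sided permutation test of the log ratio. Replicate pairs differed by more than sampling noise (chi-square per degree of freedom 1.89 to 34.2), and all 6 libraries were kept. Some genes of the PI3K-AKT list are counted but not reported here by name.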

Additional observations from a re-analysis of the deposited data

How the results depend on the processing

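With any 1 library left out, the log2 fold change ran from 1.78 to 1.99 for *Igf2*, 6.61 to 6.88 for *Igf2os*, -0.21 to 0.12 for *H19*, 0.12 to 0.24 for *Igf2r*, -0.37 to -0.29 for *Igf1r*, -0.08 to 0.17 for *Igf2bp1*, -1.08 to -0.95 for *Igf2bp2* and -0.08 to -0.02 for *Igf2bp3*. *Igf1r* lost its call without HOXA13 replicate 2 (-0.32, adjusted p = 0.0564), and *Igf2bp1* gained one without control replicate 1 (0.17, adjusted p = 0.0378); the cause was not tested. The calls for all genes ran from 1134 to 2428 higher and 904 to 2579 lower, lowest without HOXA13 replicate 1 and highest without control replicate 2; the cause was not tested. Higher and lower counts ran from 1 to 3 and 3 to 9 in the IGF list, 2 to 7 and 4 to 6 in the PI3K-AKT list, 3 to 5 and 2 to 4 in the imprinting list, 0 to 4 and 1 to 3 among Igf2bp partners, 4 to 5 and 2 to 4 among chromosome 7 neighbours, 2 to 3 and 1 to 3 among chromosome 17 neighbours, and 0 to 1 and 1 to 2 among the 6 tested genes. The IGF list and chromosome 7 counts include *Irs4*, *Th* and *Brsk2*, which passed the filter only through the group where they were high. The highest count of higher chromosome 7 neighbours also includes *Tnnt3* or *Tspan32*. Their remaining control counts in those fits were under the filter's minimum count. With each chromosome centred, 2 genes of the IGF list were higher and 8 lower, against 1 and 6 without centring. In that setting 0 Igf2bp partners were higher, and *Dhx9* (-0.10) and *Hnrnpu* (-0.11) reversed. *Igfbp2* and *Irs1* lie on chromosome 1 like *Dhx9* and *Hnrnpu*, and their centred values are not reported here. Within 500 kb, 2 chromosome 7 neighbours were higher and 0 lower (0 lower also at an unadjusted p under 0.05, in DESeq2 and in limma-voom), and 1 chromosome 17 neighbour was lower.

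The replicate number as a block gave 3172 calls in place of 3836 and 1 higher Igf2bp partner in place of 3, and changed no call among the 6 tested genes. Same-numbered libraries of the groups did not deviate together over all genes (r = -0.0154, -0.0454 and 0.0182). This check cannot exclude a pairing that touches fewer genes. Relative to the summed fibroblast markers, an alternative chosen after seeing the data, the log2 difference was 1.68 for *Igf2*, 6.50 for *Igf2os*, -0.23 for *H19*, -0.04 for *Igf2r*, -0.58 for *Igf1r*, -0.22 for *Igf2bp1*, -1.27 for *Igf2bp2* and -0.30 for *Igf2bp3*. *Igf2bp2* and *Igf1r* kept their direction under all 16 alternatives. So did *Igf2* and *Igf2os*, but these were chosen for their rise in the same counts, so this is not read as support. Precision is limited by 3 libraries a group and, for *Th* and *Igf2os*, by few control counts.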
